A study of Mus musculus with 18 samples.

Results

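Livers of mice that ate a high-fat diet and received daily NAD+ (HFN) were compared at midday with livers of mice on the control diet (CD, chow). The comparison takes 3 HFN and 3 CD arrays at zeitgeber time 6 (ZT6, hours after lights on), 6 of the 18 arrays in the series, chosen by diet, treatment and harvest time alone. Of 72688 entries on the array, 65956 were transcript clusters, each the probe set that stands for a gene or transcript, and these entered the test, while the remaining 6732 were controls and did not. All mice were C57BL/6J males kept in a 12-h light and dark cycle and fed ad libitum, and each array held the liver RNA of 1 mouse. HFN mice ate a diet with 53% of its energy as fat for 11 weeks and, after the first 8 of them, were injected intraperitoneally with 50 mg/kg NAD+ at ZT11 each day for 3 weeks. The high-fat group without NAD+ (HF, 3 arrays at ZT6) ate the same diet for the same time with saline injections in place of NAD+. CD mice stayed on chow throughout, and saline is the injection named for all mice without NAD+. HFN and CD livers thus differ in both diet and NAD+, and the share of each in a difference cannot be told apart from these 2 groups alone. HFN and CD livers collected at ZT18, in the dark phase, are given beside the midday values where they bear on them.

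The liver takes up fatty acids that reach it from food and adipose tissue. It burns them in mitochondria and peroxisomes, stores them in lipid droplets or exports them in lipoproteins, and it also makes fatty acids from carbohydrate. Fatty acids bind and activate the nuclear receptor PPARα, which is known to raise the transcription of genes for fatty acid oxidation, ω-hydroxylation and ketone body synthesis. The receptors LXR and the factors SREBP1c and ChREBP are known to drive the genes of lipogenesis and desaturation, and many of these genes also follow the daily rhythm of feeding.

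The arrays read as liver. All 11 hepatocyte markers on the array stood above the 95th percentile of the negative control probe sets on at least 1 of the 6 compared arrays, and 6 of them, albumin among them, lay at the highest value the table allows, 19.9 on the log2 scale, on every array. Array medians lay between 4.29 and 4.42 across all 18 arrays, and the negative control 95th percentile between 7.84 and 8.66 on the 6 compared ones. CD replicate 3 stood apart from its group, with the highest negative control median of the 6 compared arrays, 4.95 (against 4.75, 4.60 and 4.61 in HFN livers, and 4.65 and 4.60 in the other CD livers), and with a level of 11.64 for the nuclear noncoding RNA Neat1 (against 7.97, 7.71 and 7.06 in HFN livers, and 8.30 and 7.44 in the other CD livers). HF replicates 2 and 3 at ZT6 had the same marks, with negative control medians of 4.93 and 5.01 and Neat1 levels of 11.09 and 12.96 (4.76 and 7.67 in HF replicate 1). Counts and medians without these arrays stand beside many of the results they touch, and those without HF arrays or by list were chosen after the data were seen. Shares of all clusters at the unadjusted p are given only for the fit with every array. List counts at the unadjusted p without an array therefore have no such share to be read against.

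At ZT6, Cyp4a14, Cyp17a1, Apoa4, Vnn1 and Fabp2 had the largest differences among the named genes that passed the test, each higher in HFN livers. Of the 65956 clusters, 21 passed an adjusted p of 0.05 with a change over 0.32 on the log2 scale (0.0318% of all tested, limma with Benjamini-Hochberg adjustment over all clusters). Of these, 17 were higher (0.0258%) and 4 were lower (0.00606%) in HFN livers. Their changes ran to 87.0-fold for Cyp4a14, and 18 of them carried 1 gene symbol each, 16 higher and 2 lower. In all 21 the 3 HFN arrays lay wholly on one side of the 3 CD arrays, an arrangement found in 5.71% of all clusters with HFN above CD and in 3.55% with HFN below CD. The spread in the fit came from all 18 arrays, and with 3 livers against 3 an exact two-sided permutation test of a single gene cannot go below 0.1. Without CD replicate 3 the count was 12 (8 higher, 4 lower), and without CD replicate 1, HFN replicate 2 or HFN replicate 3 it was 6, 8 and 9. Of the named genes, 8 still passed without CD replicate 3: Cyp4a14, Cyp17a1, Apoa4, Fabp2, Fads2, Aldh3a2, Plin2 and Aox3. The 10 others had adjusted p between 0.0557 (St3gal5) and 0.196 (Crat) without it, all with the same sign. The whole-tissue arrays cannot tell fewer cells of a type from less RNA per cell.

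**Figure D1:**
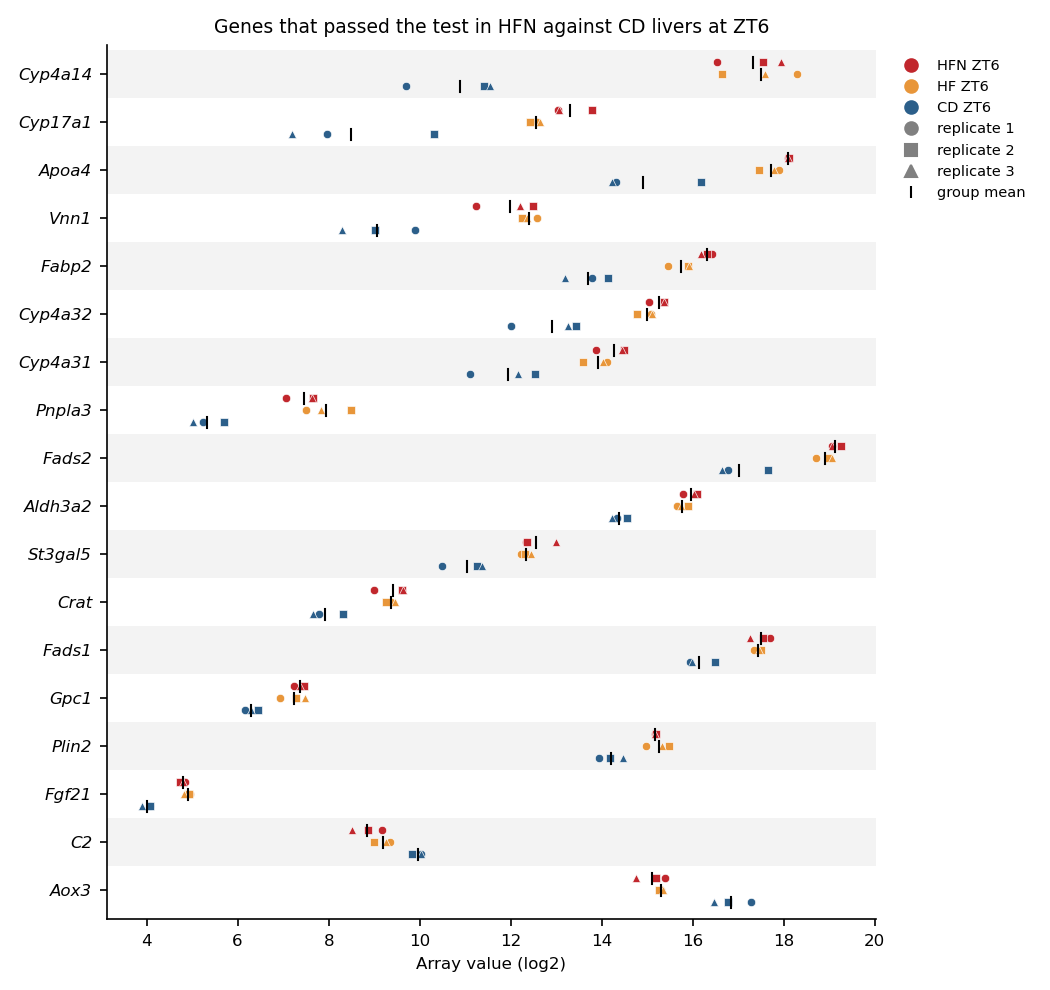
Log2 array values of the 18 named genes that passed the test, 1 point per liver, with HFN livers drawn above HF and CD livers for each gene, the marker shape giving the replicate and the black bar the group mean. In each gene the 3 HFN livers and the 3 CD livers do not overlap, and the gap is widest for Cyp4a14 (means 17.33 in HFN and 10.89 in CD livers).

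Of the Cyp4a family, 3 members rose in HFN livers. The family encodes the microsomal ω-hydroxylases of fatty acids and holds classical PPARα targets. Cyp4a14 (TC0400003318.mm.1) read 16.52, 17.54 and 17.93 in HFN livers, against 9.70, 11.42 and 11.56 in CD livers, on the log2 scale. Its means were 17.33 ± 0.73 in HFN and 10.89 ± 1.04 in CD livers (SD, n = 3 each), a difference of 6.44 ± 0.85 (SE, adjusted p = 0.0132, limma), or 87.0-fold. The lowest HFN liver was thus far above the highest CD liver, in which the gene was still above the background of the array. Cyp4a32 (TC0400004188.mm.1) read 15.04, 15.36 and 15.38 in HFN livers, against 12.01, 13.44 and 13.27 in CD livers (difference 2.36 ± 0.36 SE, adjusted p = 0.0448). Cyp4a31 (TC0400001229.mm.1) read 13.87, 14.49 and 14.45 in HFN livers, against 11.11, 12.54 and 12.15 in CD livers (2.33 ± 0.36 SE, adjusted p = 0.0471). In both, CD replicate 1 was the lowest array and the other CD livers lay closer to the HFN livers. Another cluster, TC0400004187.mm.1, is assigned to both Cyp4a10 and Cyp4a31. It read 16.91, 17.61 and 17.73 in HFN livers, against 13.78, 15.50 and 14.98 in CD livers, and missed the threshold (2.66, adjusted p = 0.0662). These family members are near-identical in sequence, so probes may read more than 1 of them and the split between members is uncertain. Over the 16 ω-hydroxylases on the array these 3 rose and none fell, and the list's median difference was 0.06 beside 0.0094 over all clusters. Without CD replicate 3, 1 of the 16 (Cyp4a14) rose and the median was 0.11.

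Another 3 PPARα-regulated genes rose as well. Vnn1 (TC1000000193.mm.1), which encodes the pantetheinase vanin-1, read 11.24, 12.48 and 12.21 in HFN livers, against 9.89, 9.01 and 8.30 in CD livers, 2.91 ± 0.40 higher (SE, adjusted p = 0.0169). Plin2 (TC0400002980.mm.1), a coat protein of lipid droplets, read 15.16, 15.19 and 15.16 in HFN livers, against 13.95, 14.19 and 14.48 in CD livers, 0.97 ± 0.13 higher (SE, adjusted p = 0.0179). The 3 HFN livers had nearly the same Plin2 value, and the CD livers spread more widely below them. Fgf21 (TC0700003013.mm.1), a hormone the liver secretes in fasting and under lipid load, read 4.84, 4.72 and 4.80 in HFN livers, against 4.07, 4.08 and 3.89 in CD livers, 0.77 ± 0.11 higher (SE, adjusted p = 0.02). Fgf21 lay below the 95th percentile of the negative controls on all 6 arrays, so its fold of 1.71 is between values that the array does not separate well from background.

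These 6 genes were the ones that rose among the 25 PPARα-regulated genes on the array, and none fell. At an unadjusted p under 0.05 with the same least change, 16 of the 25 were higher and 0 were lower, where 1.22% of all clusters were higher and 0.898% lower. The list's median difference was 0.97, and 23 of 25 members were above 0. With CD replicate 3 left out, 2 of the 25 rose, Cyp4a14 and Plin2, 17 were higher and 0 lower at the unadjusted p, and the median was 1.05. Acaa1b, a peroxisomal thiolase named here after its values were seen, read 15.68, 16.43 and 16.29 in HFN livers, against 14.32, 14.52 and 14.74 in CD livers, a difference of 1.61 that missed the threshold (adjusted p = 0.0643). Ppara itself read 12.77, 13.09 and 13.02 in HFN livers, against 11.94, 12.29 and 12.96 in CD livers, and its difference of 0.56 did not pass (adjusted p = 1). The acyl-CoA thioesterases, which release fatty acids from coenzyme A, had 0 of 15 members past the test and 5 higher at the unadjusted p. Among them Acot4 read 7.52, 8.08 and 8.62 in HFN livers, against 6.66, 6.84 and 6.54 in CD livers (1.39, adjusted p = 0.154). Acot1 read 8.45, 9.17 and 9.32 in HFN livers, against 6.67, 7.40 and 7.58 in CD livers (1.76, adjusted p = 0.201). The groups did not overlap for either gene, HFN replicate 1 was the lowest HFN liver in both, and neither was above the negative control 95th percentile on any CD array.

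Genes that bind, carry or process fatty acids rose too. Fabp2 (TC0300001251.mm.1), the intestinal-type fatty acid binding protein, read 16.42, 16.32 and 16.19 in HFN livers, against 13.78, 14.14 and 13.19 in CD livers. It was 2.61 ± 0.25 higher (SE, adjusted p = 0.000837), or 6.09-fold. Apoa4 (TC0900000560.mm.1), an apolipoprotein of triglyceride-rich particles, read 18.09, 18.12 and 18.09 in HFN livers, against 14.30, 16.18 and 14.22 in CD livers. It was 3.20 ± 0.38 higher (SE, adjusted p = 0.00674), or 9.18-fold, and CD replicate 2 was well above the other CD livers. For both genes the HFN livers were tightly grouped and the spread lay in CD. Crat (TC0200003271.mm.1), the carnitine acetyltransferase that moves acetyl groups between coenzyme A and carnitine, read 9.0, 9.60 and 9.63 in HFN livers, against 7.79, 8.30 and 7.65 in CD livers (1.50 ± 0.23 SE, adjusted p = 0.0404), and was above the negative control 95th percentile on 1 of the 3 CD arrays. Aldh3a2 (TC1100002907.mm.1), the fatty aldehyde dehydrogenase that oxidises long-chain aldehydes to fatty acids, read 15.78, 16.10 and 16.04 in HFN livers, against 14.34, 14.55 and 14.23 in CD livers (1.60 ± 0.14 SE, adjusted p = 0.00041). Aldh3a2 had the smallest standard error of these 4 genes, and with Fabp2 and Fads2 it passed whichever of the 6 compared arrays was left out. Among the list genes, Fabp2 was the only called one of 21 in the uptake and binding list, Apoa4 the only one of 21 in the lipoprotein list, Crat the only one of 30 in the peroxisomal list and Aldh3a2 the only one of 31 carboxylesterases and aldehyde enzymes. The medians of these lists were 0.17, 0.00, 0.09 and -0.09, beside 0.0094 over all clusters, and without CD replicate 3 they were 0.18, 0.03, 0.08 and -0.14, with Fabp2, Apoa4 and Aldh3a2 still called and Crat not.

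Fads1, Fads2 and Pnpla3 rose in HFN livers, while the enzymes of fatty acid synthesis did not pass the test. Fads1 and Fads2 encode the desaturases that make long polyunsaturated fatty acids from dietary precursors. Fads2 (TC1900001094.mm.1) read 19.06, 19.25 and 19.05 in HFN livers, against 16.77, 17.66 and 16.64 in CD livers (2.10 ± 0.23 SE, adjusted p = 0.00397). A second and brighter Fads2 probe set, TC1900001095.mm.1, read 19.38, 19.31 and 18.97 in HFN livers, against 16.70, 17.87 and 16.98 in CD livers (2.04, adjusted p = 0.067). Both probe sets gave a difference of similar size, and in HFN livers both lay close to the highest value of the table, where differences are compressed. Fads1 (TC1900000188.mm.1) read 17.70, 17.54 and 17.26 in HFN livers, against 15.94, 16.48 and 15.99 in CD livers (1.36 ± 0.20 SE, adjusted p = 0.0371). Pnpla3 (TC1500000782.mm.1), a lipid droplet acylhydrolase and a target of the lipogenic factors, read 7.05, 7.65 and 7.63 in HFN livers, against 5.23, 5.70 and 5.03 in CD livers (2.13 ± 0.28 SE, adjusted p = 0.0132). As for Fgf21, all 6 Pnpla3 values were below the 95th percentile of the negative controls.

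Of the 23 lipogenesis and desaturation genes, 2 rose by the brightest probe set of each gene (Fads1 and Pnpla3) and none fell, 14 were higher at the unadjusted p and 0 lower, and the median difference was 1.09. Without CD replicate 3, 0 of the 23 passed, 12 were higher and 0 lower at the unadjusted p, and the median was 0.78. Several of its enzymes had larger differences than Fads1 without passing, and those that follow were picked after their values were seen. Fasn, the fatty acid synthase, read 15.33, 15.49 and 16.03 in HFN livers, against 13.09, 13.75 and 12.50 in CD livers (2.50, adjusted p = 0.184). Gpam, the mitochondrial acyltransferase that starts glycerolipid synthesis, read 14.14, 15.16 and 15.28 in HFN livers, against 12.59, 12.62 and 11.88 in CD livers (2.50, adjusted p = 0.0958). Acacb, an acetyl-CoA carboxylase, read 10.79, 10.57 and 10.64 in HFN livers, against 8.03, 8.86 and 8.16 in CD livers (2.32, adjusted p = 0.101). Their groups did not overlap, but their differences were smaller relative to the fitted error than those of the genes that passed. Acly, the ATP citrate lyase that supplies acetyl-CoA, differed by 2.20 (adjusted p = 0.217) and Acaca, the other acetyl-CoA carboxylase, by 1.09 (adjusted p = 0.232). Scd1, the stearoyl-CoA desaturase, lay at the highest value of the table on every array, so no difference in it could be measured. Mfsd2a, a transporter of lysophosphatidylcholine, had a difference of 4.86, second in size to Cyp4a14 among the genes described here, from 15.55, 15.18 and 15.96 in HFN livers and 7.90, 13.06 and 11.15 in CD livers (adjusted p = 0.16). The CD livers alone spanned more than that difference.

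**Figure D2:**
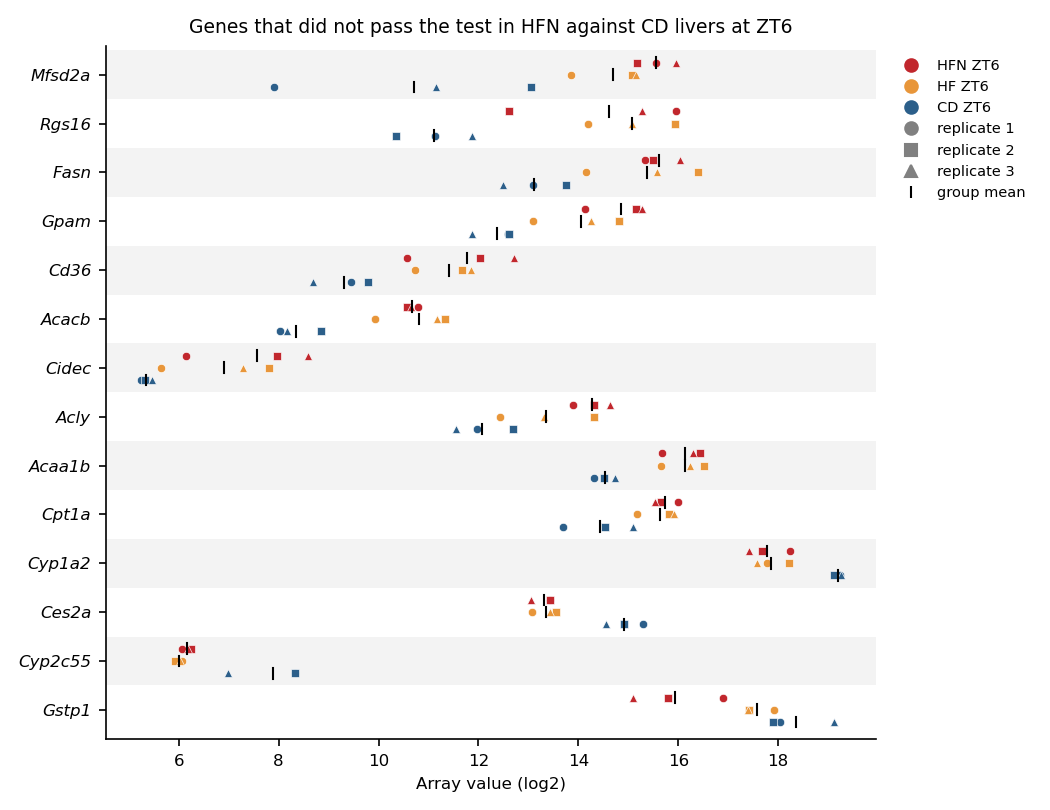
Log2 array values of 14 genes that did not pass the test in HFN against CD livers at ZT6, 1 point per liver, with HFN livers drawn above HF and CD livers, the marker shape giving the replicate and the black bar the group mean. The HFN and CD livers do not overlap in these genes, as in 5.71% of all clusters with HFN above CD and 3.55% with HFN below CD. The genes were chosen for display, several after their values were seen, so their number cannot be set against those shares. The spread within CD is wide in Mfsd2a (7.90 to 13.06) and narrow in Cyp1a2 (19.12 to 19.25).

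Another 3 named genes and 1 unnamed cluster rose. Cyp17a1 (TC1900001612.mm.1), the hydroxylase and lyase of steroid hormone synthesis, read 13.05, 13.79 and 13.06 in HFN livers, against 7.96, 10.31 and 7.19 in CD livers. It was 4.82 ± 0.59 higher (SE, adjusted p = 0.00821), or 28.2-fold, the second largest change among the called genes. St3gal5 (TC0600000841.mm.1), the sialyltransferase that starts ganglioside synthesis, read 12.33, 12.36 and 13.00 in HFN livers, against 10.50, 11.27 and 11.38 in CD livers (1.51 ± 0.23 SE, adjusted p = 0.0448). Gpc1 (TC0100000916.mm.1), the cell-surface proteoglycan glypican-1, read 7.25, 7.47 and 7.38 in HFN livers, against 6.16, 6.45 and 6.30 in CD livers (1.06 ± 0.16 SE, adjusted p = 0.0448). St3gal5 and Gpc1 were the only named genes that passed in none of the fits with 1 of the 6 compared arrays left out. Over 15 alternative settings St3gal5 passed in 4, Cyp4a31 in 5, Cyp4a32 and Plin2 in 6 each, and Gpc1 in 7. Gpc1 lay below the negative control 95th percentile on all 6 compared arrays. The unnamed cluster TC0900002219.mm.1 had the lowest adjusted p of the comparison, 4.45e-05. It read 10.16, 10.17 and 10.44 in HFN livers, against 6.11, 7.02 and 5.94 in CD livers. Its CD values were below the negative control 95th percentile on all 3 arrays, and set against that background it was at least 4.31-fold higher in HFN livers.

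Of the clusters that fell, Aox3 (TC0100000428.mm.1), an aldehyde oxidase of liver, had the largest change with a symbol. The aldehyde oxidases also oxidise methylated nicotinamide, the excreted product of NAD+ breakdown. Aox3 read 15.40, 15.20 and 14.74 in HFN livers, against 17.29, 16.77 and 16.46 in CD livers. It fell by 1.73 ± 0.22 on the log2 scale (SE, adjusted p = 0.0116), or 3.31-fold lower, and every HFN liver was more than 1 log2 unit below the lowest CD liver. The unnamed cluster TC0100000429.mm.1 read 12.63, 12.84 and 12.28 in HFN livers, against 15.08, 14.71 and 14.66 in CD livers (-2.23 ± 0.25 SE, adjusted p = 0.00397). The complement protease gene C2 (TC1700002817.mm.1) read 9.17, 8.87 and 8.50 in HFN livers, against 10.03, 9.82 and 10.02 in CD livers (-1.11 ± 0.15 SE, adjusted p = 0.0132). A second C2 probe set, which was near the array's background, gave a difference of -0.06 (adjusted p = 1), so the fall was seen in 1 of 2 probe sets. The unnamed cluster TC1100003773.mm.1 read 6.95, 7.17 and 7.21 in HFN livers, against 7.94, 7.69 and 7.78 in CD livers (-0.69 ± 0.09 SE, adjusted p = 0.00821), and was above the negative control 95th percentile on 0 HFN arrays and 1 CD array.

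In the 16 named genes that rose, CD replicate 2 was the highest CD liver in 12 and the lowest in 0, CD replicate 3 was the lowest in 9 and the highest in 3, CD replicate 1 was the lowest in 7 and the highest in 1, and HFN replicate 1 was the lowest HFN liver in 11. Over all 18 named genes, the SD was larger among CD than among HFN livers in 15.

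**Figure D3:**
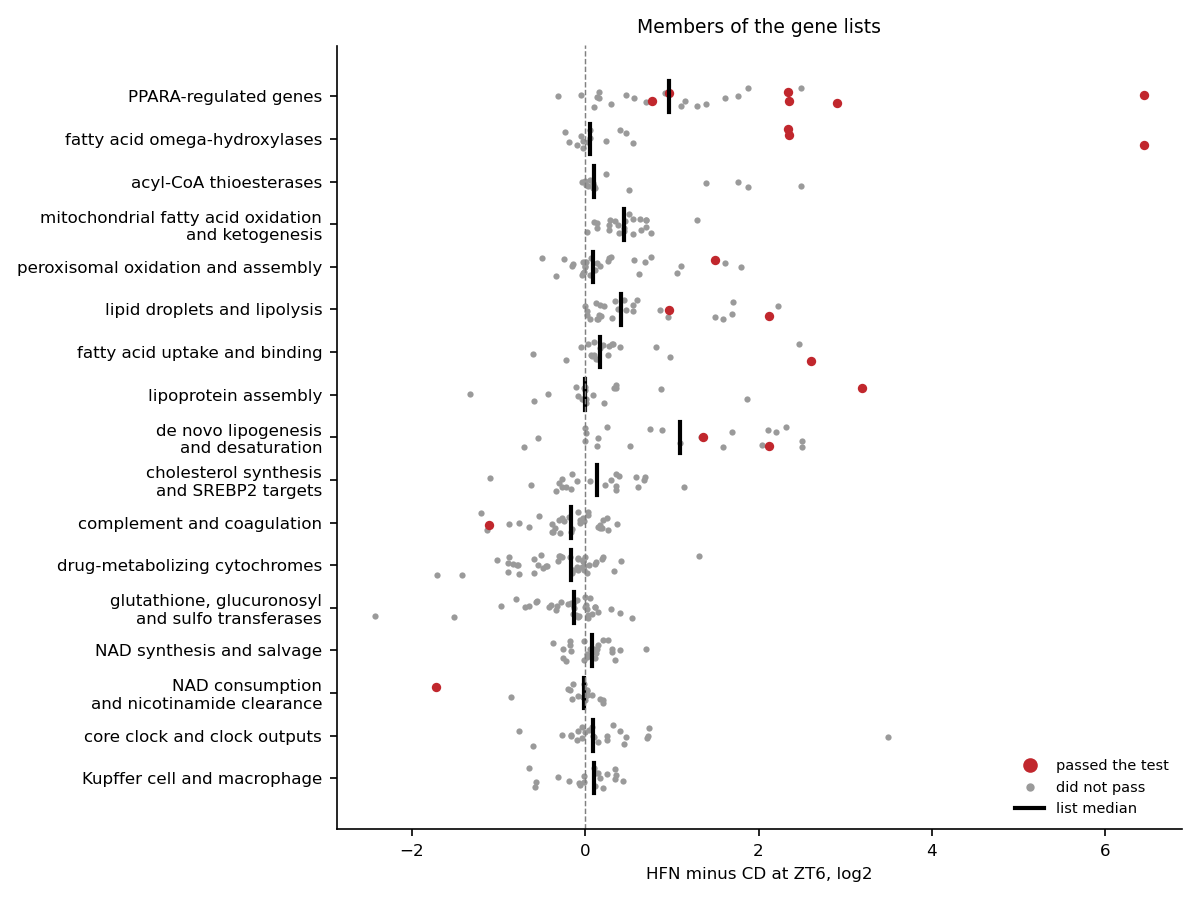
Difference in log2 value between HFN and CD livers at ZT6 for each member of 17 gene lists, with the members that passed the test in red, the others in grey and the list's median as a black bar. The medians are highest for lipogenesis and desaturation (1.09), PPARα-regulated genes (0.97) and mitochondrial fatty acid oxidation (0.45).

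Mitochondrial fatty acid oxidation and ketone body synthesis showed small differences that ran one way. None of the 23 genes passed the adjusted test, all 23 were above 0, 14 were higher and 0 lower at the unadjusted p, and the median difference was 0.45. Leaving out CD replicate 3 left 22 of 23 above 0, 14 higher at the unadjusted p and a median of 0.45. Bdh1, which makes the ketone body β-hydroxybutyrate, read 10.56, 10.63 and 10.52 in HFN livers, against 9.65, 9.80 and 9.98 in CD livers (0.76, adjusted p = 0.0712). Hadha, a subunit of the mitochondrial trifunctional protein, read 14.36, 14.37 and 14.20 in HFN livers, against 13.74, 13.82 and 13.74 in CD livers (0.55, adjusted p = 0.118). Cpt1a, the carnitine palmitoyltransferase at the mitochondrial entry step and named after its values were seen, had the largest difference of the list at 1.29 (adjusted p = 0.315), with 15.99, 15.65 and 15.54 in HFN livers and 13.70, 14.53 and 15.09 in CD livers. The 30 peroxisomal genes were mixed, with Crat called, 9 higher and 1 lower at the unadjusted p and a median of 0.09, which ran between 0.01 (without HFN replicate 2) and 0.22 (without HFN replicate 1) when 1 array was left out.

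Lipid droplet and lipolysis genes were likewise above 0 in all 28 members, with a median of 0.41, and 2 of them, Plin2 and Pnpla3, passed. Plin2 alone passed without CD replicate 3, where 27 of 28 were above 0 and the median was 0.43. A further 3 are named after their values were seen. Cidec, a droplet fusion protein, read 6.14, 7.96 and 8.58 in HFN livers, against 5.24, 5.32 and 5.46 in CD livers (2.22, adjusted p = 0.501). It was above the negative control 95th percentile on 2 HFN and 0 CD arrays. Mgll, the monoacylglycerol lipase, read 10.60, 10.80 and 10.72 in HFN livers, against 9.57, 10.19 and 9.77 in CD livers (0.87, adjusted p = 0.131). Cd36, a fatty acid translocase of the uptake list, read 10.57, 12.03 and 12.71 in HFN livers, against 9.45, 9.78 and 8.68 in CD livers (2.47, adjusted p = 0.231). For Cidec and Cd36 the HFN livers differed among themselves by about as much as they differed from CD, and HFN replicate 1 was the lowest in both.

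Cholesterol and bile acid genes gave no call. None of the 22 cholesterol synthesis genes passed, with 5 higher and 2 lower at the unadjusted p and a median of 0.14. The median was -0.01 without CD replicate 3, with 0 higher and 9 lower at the unadjusted p, and 0.33 without CD replicate 2. The 2 with the lowest p were Sc5d, a desaturase late in the pathway (0.35, adjusted p = 0.971), and Lbr, a sterol reductase of the nuclear envelope (-0.34, adjusted p = 1). None of the 34 bile acid genes passed either, with 3 higher and 2 lower at the unadjusted p. Cyp8b1, the hydroxylase of cholic acid synthesis, read 13.70, 14.85 and 14.50 in HFN livers, against 12.36, 13.32 and 13.72 in CD livers (1.21, adjusted p = 0.759), and the groups overlapped by 1 liver. Akr1c6, a hydroxysteroid dehydrogenase, differed by -0.51 (adjusted p = 0.992).

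Drug-metabolizing, conjugating and complement genes leaned lower in HFN livers, with C2 as the only call. Of 44 drug-metabolizing cytochromes and regulators none passed, 14 were lower and 1 was higher at the unadjusted p, and the median was -0.16. Cyp2c55 read 6.07, 6.25 and 6.19 in HFN livers, against 8.33, 8.34 and 6.99 in CD livers (-1.71, adjusted p = 0.108), and was above the negative control 95th percentile on 0 HFN and 2 CD arrays. Cyp1a2, which oxidises caffeine and many aromatic amines, read 18.24, 17.68 and 17.41 in HFN livers, against 19.23, 19.12 and 19.25 in CD livers (-1.42, adjusted p = 0.239). The groups did not overlap for either gene. Of 37 glutathione, glucuronosyl and sulfo transferases 9 were lower and 2 higher at the unadjusted p, with none past the test. Gstp1, a glutathione transferase with high expression in male mouse liver, had 16.90, 15.79 and 15.10 in HFN livers, against 18.04, 17.89 and 19.13 in CD livers (-2.42, adjusted p = 0.288), and Gsta2 had 7.67, 8.06 and 7.94 in HFN livers, against 9.40, 9.61 and 9.22 in CD livers (-1.52, adjusted p = 0.478). Of 33 complement and coagulation genes C2 fell, 7 including it were lower and 0 higher at the unadjusted p, and the median was -0.16. Without CD replicate 3, 17 of the 44 cytochromes and regulators and 12 of the 37 transferases were lower at the unadjusted p. So were 6 of the 33 complement and coagulation genes. The share of all clusters in that fit is not given here, so these counts have no reference rate. In the same fit Cyp2c55 passed (-2.16, adjusted p = 0.00518), and C2 did not. Among the carboxylesterases, Ces2a, picked after its values were seen, read 13.43, 13.42 and 13.06 in HFN livers, against 15.29, 14.91 and 14.56 in CD livers (-1.62, adjusted p = 0.0764).

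The treatment in HFN mice was NAD+, and of the genes listed for its own metabolism only Aox3 passed in HFN against CD at ZT6. Of 24 genes of NAD synthesis and salvage none passed, 2 were higher and 1 was lower at the unadjusted p, and the median was 0.08. Nadk, the kinase that makes NADP+ from NAD+, read 10.99, 11.19 and 11.02 in HFN livers, against 10.52, 10.94 and 10.53 in CD livers (0.40, adjusted p = 0.871). Nmrk1, a nicotinamide riboside kinase, read 8.09, 8.09 and 8.05 in HFN livers, against 7.65, 7.95 and 7.58 in CD livers (0.35, adjusted p = 1). Nampt, the rate-limiting enzyme of NAD+ salvage, differed by 0.70 (unadjusted p = 0.0628). Of 20 genes of NAD+ consumption and nicotinamide clearance Aox3 fell and none rose, and the median was -0.01. Aox3 was also lower than CD in HF livers, which received saline (-1.53, adjusted p = 0.0228, limma). Its HFN minus HF difference was -0.19, with a 95% interval of -0.67 to 0.28. Nnmt, which methylates nicotinamide, differed by -0.20 and Sirt1, an NAD+-dependent deacetylase, by -0.15. Nampt, Nnmt and Sirt1 were picked for their place in the pathway with their values known.

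None of the 25 core clock and clock output genes passed at this single hour, with 4 higher and 1 lower at the unadjusted p (7 higher and 1 lower without CD replicate 3). Only 9 of the 25 were above the negative control 95th percentile on any of the 6 compared arrays, so most could not be measured well. Rgs16, a regulator of G-protein signalling that is rhythmic in liver, read 15.96, 12.60 and 15.27 in HFN livers, against 11.13, 10.35 and 11.88 in CD livers (3.49, adjusted p = 0.25). Clock, a core activator of the circadian loop, read 11.44, 11.46 and 11.13 in HFN livers, against 12.18, 11.96 and 11.72 in CD livers (-0.60, adjusted p = 0.5). Of the genes that the study names for its ZT6 arrays, in cytokine and TGFβ signalling and the clock, 16 were matched on the array, and 0 of them passed in HFN against CD. Of these 16, 7 were above the negative control 95th percentile on any of the 6 compared arrays. At the unadjusted p 1 was higher (Ciart, 0.71, adjusted p = 0.687) and 2 were lower (Clock, and Il1r1 at -1.08, adjusted p = 0.765). Ciart was above that percentile on 0 HFN and 0 CD arrays. The other 13 lay between -0.26 (Stat6) and 0.25 (Tef), each with an adjusted p of 1. The study names the cytokine and TGFβ genes for lower levels in HFN than in HF livers. It names the clock genes for day to night differences shared by all groups, at comparable levels. It also reports on transcripts that differed both between CD and HF and between HF and HFN livers. Most of these are said to return to control levels in HFN livers. Which of the genes named here belong to that set was not checked. In HFN against HF 0 of the 16 passed, and 3 were lower and 0 higher at the unadjusted p. The median of HFN minus HF was -0.21, with 4 of 16 above 0. These values pool the clock genes, for which the study states no difference between HFN and HF. The study shows the cytokine and TGFβ genes with a gene set enrichment, and it also gives RT-qPCR and cytokine protein levels. A test of single genes with adjustment over all clusters is a different measure.

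HF livers at ZT6 show what the same diet gave without NAD+, and they share the CD arrays with the HFN comparison, so the values of the 2 comparisons are set side by side, and the difference between HFN and HF was tested directly. HF against CD gave 29 calls (0.044% of all clusters), 23 higher and 6 lower, and HFN against HF gave 0 calls (0%), with 2685 at the unadjusted p and a lowest adjusted p of 0.319. HF against CD gave 32 calls without CD replicate 3, 48, 22 and 6 without HF replicates 1, 2 and 3, and 2 without HF replicates 2 and 3 together. HFN against HF gave 6 calls without HF replicate 1, which leaves HF replicates 2 and 3 as the HF livers, 0 without HF replicate 2 or 3, and 2 without both. With HF replicate 1 left out the called clusters were Gm23598 (1.02, adjusted p = 0.0422) and 5 unnamed clusters, all 5 lower in HFN livers. With both others left out they were Lepr, the leptin receptor (-2.90, adjusted p = 0.00236), and TC0400001040.mm.1 (-1.24, adjusted p = 0.00236), where the lone HF liver is assumed to vary like the other groups. With every array kept, Gm23598 differed by 0.79 (adjusted p = 0.545) and Lepr by -1.19 (adjusted p = 0.695). These genes are named after their values were seen. Of the 21 clusters called in HFN against CD, 15 were also called in HF against CD, 13 of them named genes. All 21 had the same sign and an unadjusted p under 0.05 in HF against CD. The clusters called in HFN against CD that did not pass in HF against CD were Cyp4a31 (HF against CD 1.98, adjusted p = 0.093), Cyp4a32 (2.08, 0.0725), St3gal5 (1.28, 0.093), Gpc1 (0.93, 0.0749), C2 (-0.76, 0.11) and TC1100003773.mm.1 (-0.29, 0.504). TC1100003773.mm.1 read 7.62, 7.46 and 7.47 in HF livers.

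The difference between HFN and HF was measured directly, with intervals that bound how far the groups with NAD+ and saline could differ in each gene. For Cyp4a14, HF livers read 18.29, 16.63 and 17.60, and HFN minus HF was -0.18 with a 95% interval of -1.99 to 1.64. For Cyp17a1, HF livers read 12.58, 12.41 and 12.65, and HFN minus HF was 0.75 (-0.52 to 2.02). Both intervals are wide, and differences of several fold in either direction for Cyp4a14, or upwards for Cyp17a1, were not detectable here. The intervals were narrow for Plin2 (-0.09, -0.37 to 0.20), Fgf21 (-0.12, -0.35 to 0.12) and Aldh3a2 (0.21, -0.09 to 0.50). In 10 of the 18 named genes the whole interval lay within 1 log2 unit of 0. In 2 of the 18 it excluded 0, before any adjustment. Fabp2 was 0.56 higher in HFN than in HF livers (0.03 to 1.09, adjusted p = 0.71), with HF livers at 15.45, 15.89 and 15.91. C2 was -0.35 from HF (-0.67 to -0.04, adjusted p = 0.696), with HF livers at 9.34, 9.01 and 9.27. Among the unnamed clusters, TC0900002219.mm.1 was 1.00 higher in HFN than in HF livers (0.42 to 1.58) and TC1100003773.mm.1 was -0.41 from HF (-0.59 to -0.22), neither past the adjusted test.

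**Figure D4:**
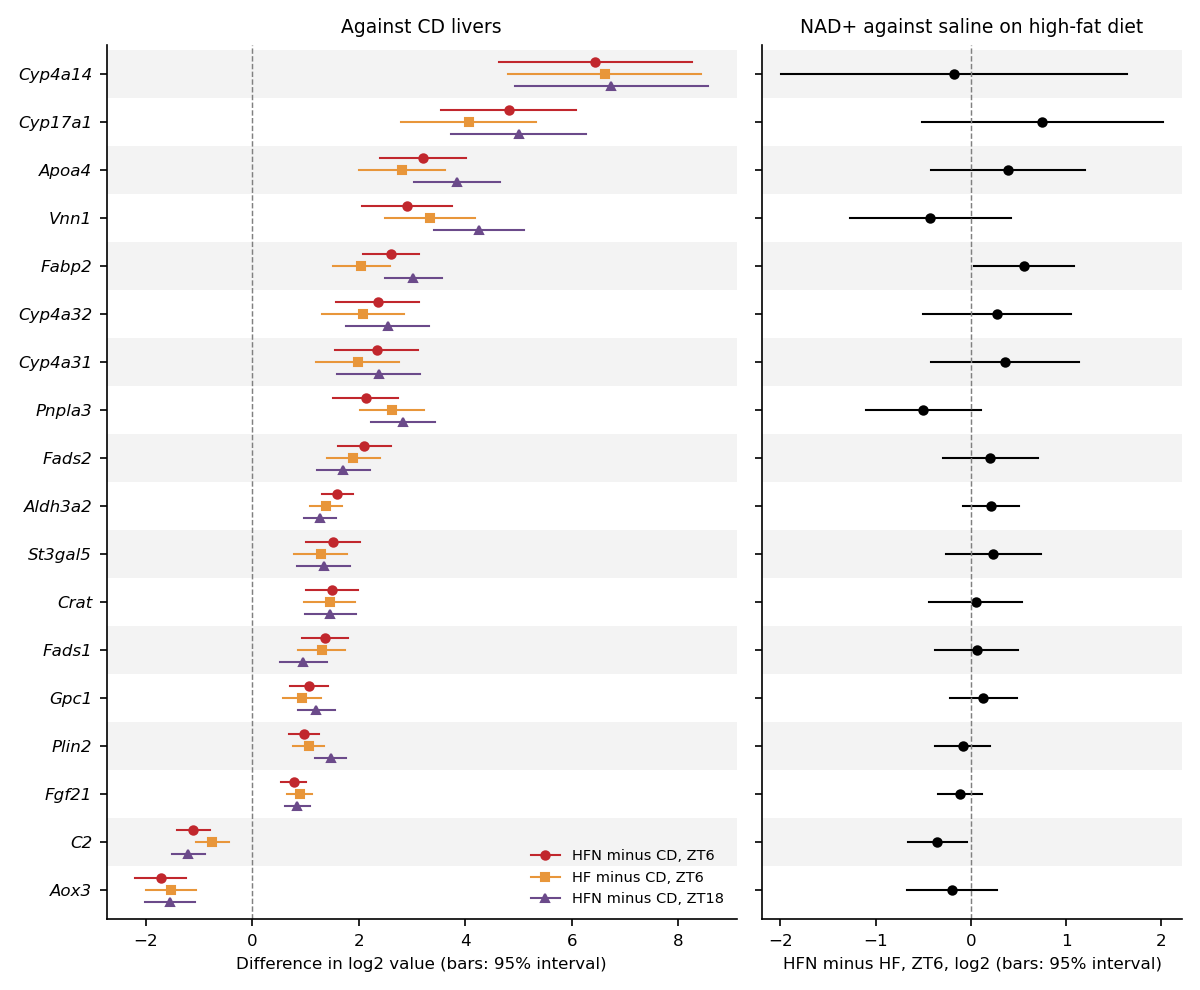
Left, differences in log2 value against CD livers for the 18 named genes, with HFN at ZT6 as red circles, HF at ZT6 as orange squares and HFN at ZT18 as purple triangles. Right, HFN minus HF at ZT6, and in both panels bars are 95% intervals, of which the right-hand ones exclude 0 for Fabp2 (0.03 to 1.09) and C2 (-0.67 to -0.04).

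Another 14 clusters were called in HF against CD and not in HFN against CD, and both comparisons rest on the same CD arrays. Acaa1b differed from CD by 1.61 in HFN and 1.61 in HF livers. Elovl2, an elongase of polyunsaturated fatty acids, differed from CD by 0.88 in HFN and 1.02 in HF livers, Acaca by 1.09 in HFN and 1.44 in HF livers, and Decr2, a peroxisomal dienoyl-CoA reductase, by 0.69 in HFN and 0.99 in HF livers. Ces1g, a carboxylesterase, differed from CD by -1.28 in HFN and -1.83 in HF livers, and Ddc, the aromatic amino acid decarboxylase, by -1.02 in HFN and -1.51 in HF livers. Slc23a2, an ascorbate transporter, differed by 0.14 in HFN and 0.76 in HF livers. Slc23a2 was also among the 5 named genes with the lowest p in HFN against HF, together with Slc9a3r2 (-0.67), Gm25564 (0.91), Pik3ap1 (-1.0) and Gm24475 (0.56), whose adjusted p lay between 0.319 and 0.385. The list medians in HF minus CD were 1.28 for lipogenesis, 1.05 for PPARα-regulated genes and 0.35 for mitochondrial fatty acid oxidation. They were 0.37 for lipid droplets and -0.28 for drug-metabolizing cytochromes. In HFN minus HF these medians, in the same order, were -0.01, 0.02, 0.10, 0.05 and 0.12. They are not given without HF replicates 2 and 3.

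At ZT18, in livers of other mice, the HFN and CD groups differed in 698 clusters (1.06%), 551 higher (0.835%) and 147 lower (0.223%). With each array's negative control median as a covariate the ZT18 count was 205, and CD replicates 2 and 3 at ZT18 had Neat1 levels of 15.14 and 15.16. Of the 21 clusters called at ZT6, 20 were called at ZT18 in the same direction, TC1100003773.mm.1 being the exception (-0.19, adjusted p = 0.31). All 18 named genes were among them. In 12 of the 18 the ZT18 difference was the larger, as in Vnn1 (2.91 at ZT6, 4.25 at ZT18) and Plin2 (0.97 at ZT6, 1.47 at ZT18), and in Aldh3a2 (1.60 at ZT6, 1.27 at ZT18) and Fads1 (1.36 at ZT6, 0.96 at ZT18) it was the smaller. The difference between the hours was itself tested and passed in 0 of 65956 clusters, with 3217 at the unadjusted p and a lowest adjusted p of 0.337. Among the named genes the lowest adjusted p of this test was 0.77. The 5 genes with the lowest p were Gm4952 (-1.47), Ppp2r1b (-0.90), Tor3a (-0.66), Nt5e (-1.17) and Ralgps2 (-0.67), as ZT6 less ZT18, and each had an adjusted p of 0.337.

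Several lists with few or no calls at ZT6 held more at ZT18, where 1.06% of all clusters were called against 0.0318% at ZT6. Mitochondrial fatty acid oxidation had 15 of 23 members called higher at ZT18 (median 0.73), lipid droplets 11 of 28 (median 0.71), PPARα-regulated genes 13 of 25 (median 1.31) and lipogenesis 8 of 23 (median 1.28). Lists of other kinds went from 0 calls to some as well. Rab GTPases and vesicle traffic had 5 of 49 higher at ZT18, oxidative phosphorylation 4 of 45 higher and male-biased genes 5 of 23 lower. The list counts are not given under the negative control covariate, where the ZT18 total was 205. Cd36 differed by 5.46 at ZT18 (adjusted p = 0.000277) and by 2.47 at ZT6. Cidec differed by 4.58 at ZT18 and 2.22 at ZT6. The test of the difference between the hours passed for no cluster, these genes included.

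Markers of other liver cells moved little between HFN and CD livers. Of 20 Kupffer cell and macrophage markers none passed, 1 was lower at the unadjusted p, and 11 were above 0 with a median of 0.11. Without CD replicate 3, 9 of 20 were above 0 and the median was -0.04. Their summed level ranged over 12.91 to 13.44 in HFN livers, 13.57 to 14.27 in HF livers and 12.83 to 13.59 in CD livers, so the HFN and CD ranges overlapped and the HF range lay above HFN. In HFN minus HF, 0 of 20 were above 0 and the median was -0.60, while in HF minus CD all 20 were above 0 and the median was 0.57. Leaving out HF replicate 1, 2 or 3 put the HFN minus HF median at -0.55, -0.68 and -0.59, with at most 1 marker above 0, and the HF minus CD median at 0.51, 0.69 and 0.61. Without HF replicates 2 and 3 together these medians were -0.88 and 0.78, and without CD replicate 3 the HF minus CD median was 0.52. The part of these cells in the HFN and HF values given above was not tested. Endothelial markers had a median of -0.14 in HFN minus CD, and stellate cell and fibroblast markers 0.08, with none called. Lower values in HFN than in HF livers were not limited to Kupffer markers. In HFN minus HF, 2 of 15 endothelial markers, 3 of 33 interferon-stimulated genes and 0 of 6 nuclear noncoding RNAs were above 0. In HF minus CD these were 13 of 15, 26 of 33 and 5 of 6. Of 16 stellate cell and fibroblast markers, 8 were above 0 in HFN minus HF and 13 in HF minus CD. The monocyte, neutrophil, cholangiocyte and exocrine pancreas lists had 0 members above the negative control 95th percentile on any of the 6 compared arrays.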

How the data were processed

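Total RNA from mouse liver was hybridised to Clariom D arrays, 18 livers in 6 groups of 3. The deposited log2 values were made by the authors in Transcriptome Analysis Console with default parameters, per the study's methods; the genome build of the probes is not given in the sources used here. They are normalized probe set summaries with a highest value of 19.9, reached on all arrays by 69 clusters, so differences at the top of the scale are compressed. No scanner files were used, and the number of arrays limits the precision.

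The 65956 transcript clusters were fitted in limma 3.58.1 (R 4.3.3) with the 6 groups as means over all 18 arrays (12 residual degrees of freedom and 2.27 prior ones), and p-values were adjusted by Benjamini-Hochberg over all clusters. A call needs an adjusted p of 0.05 and more than 1.25-fold. Symbols came from the platform annotation and were updated where the reference allowed. Of all clusters 31292 had 1 symbol, 1522 had several and 33142 are unnamed here, and 1497 of 1720 gene list entries were matched. Where a gene had several probe sets, the brightest stood for it in the lists. A level is below background where it lies under the 95th percentile of 5222 negative control probe sets.

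Genes named are those called with 1 symbol, up to 6 called members of each list described (or the 2 with the lowest p), the genes the study names for its ZT6 arrays and the 5 with the lowest p in HFN against HF and between the hours; others are marked in the text. The comparison, lists and rules were chosen with earlier results of these data known. The lists are therefore described by counts and medians with no test. Alternatives were: other arrays in the fit, a replicate block, dim clusters left out, quantile normalization, median centring, a trend with robust prior, array weights, negative control level as covariate, other folds and each array left out, with HF arrays left out added after the data were seen. On simulated data of 65956 clusters for HFN against CD at ZT6, with 50 clusters changed at each size, 26% of changes of 0.5, 64% of 1, 82% of 2 and 88% of 3 log2 units were called in the right direction, with 8 false calls. The changes were planted only in clusters brighter than the median, with independent normal noise and no array set apart. The rates therefore do not cover dim clusters or uneven arrays.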

Additional observations from a re-analysis of the deposited data

How the results depend on the processing

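Relative to 21 calls (17 higher, 4 lower) in HFN against CD livers at ZT6, an unadjusted p gave 1398 (806 higher, 592 lower). A fit of the 9 ZT6 arrays gave 5 (3 higher, 2 lower). A fit of the 6 compared arrays alone gave 0 in limma (0 higher, 0 lower), with a lowest adjusted p of 0.25, 4 residual degrees of freedom and all 21 clusters still past the unadjusted p. Leaving out the dimmer clusters gave 36 (30 higher), median centring 27 higher and the negative control covariate 26 higher, the last also taking HFN against CD at ZT18 to 205 from 698. Leaving out 1 array gave 6 to 26 calls (5 to 22 higher, 1 to 6 lower), lowest without CD replicate 1, and leaving out 1 CD array 7 to 32 for HF against CD. Leaving out 1 HF array, chosen after the data were seen, gave 6 to 48 for HF against CD and 0 to 6 for HFN against HF, and leaving out HF replicates 2 and 3 gave 2 and 2. The labels do not say whether replicate numbers pair the livers. Deviations of same-numbered HFN and CD livers at ZT6 correlated at -0.376, 0.0747 and -0.346, and no HFN liver matched its own number best. With so few livers and CD replicate 3 standing apart, this cannot settle whether the numbers mark a shared batch. A replicate block gave 41 calls (37 higher) and 49 for HF against CD. All 18 named genes kept their direction under every alternative run. Of 272 recomputed values, 165 stayed past the threshold and 107 did not. No named gene passed in the 6-array fit and 2 passed in the 9-array fit, while 14 to 18 passed under the block, brightness, normalization, prior, covariate and weighting alternatives. Of 37 uncalled genes described, 25 of 555 values passed, among them Mfsd2a with the replicate block (adjusted p = 0.0482) and without CD replicate 2 (0.0248). Of 300 recomputed list medians, 299 moved by less than the spread between replicates, but some near 0 changed sign, as for cholesterol synthesis (-0.01) and Kupffer cells (-0.04) without CD replicate 3 and the clock list (-0.0036) without HFN replicate 1. Values at or below the negative controls, as for Fgf21, Gpc1 and Pnpla3, limit what the folds of dim genes mean. The causes of these shifts were not tested.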

Other observations

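Genes that differ between male and female mouse liver showed values that the comparison above does not describe. Of 33 female-biased genes on the array, Cyp4a14 and Cyp17a1 rose and none fell in HFN against CD livers at ZT6, 8 were higher and 2 lower at the unadjusted p, and the median was 0.03. Of 23 male-biased genes none passed, 5 were lower and 0 higher at the unadjusted p, and the median was -0.10. Without CD replicate 3 these counts were 4 higher and 3 lower for the female-biased list and 6 lower for the male-biased one, with Cyp4a14 and Cyp17a1 still called. Selenbp2, a selenium-binding protein, read 14.74, 14.18 and 13.17 in HFN livers, against 16.27, 15.77 and 15.94 in CD livers (-1.97, adjusted p = 0.235), and its difference at ZT18 was -3.18. Gstp1 is on the same list, and with 17.91, 17.41 and 17.40 its HF livers lay above every HFN liver.

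The 28 acute phase genes had 4 higher and 0 lower at the unadjusted p and no call at ZT6, and 5 rose at ZT18. Il1rn, the interleukin-1 receptor antagonist, read 5.07, 5.30 and 5.21 in HFN livers, against 4.67, 4.81 and 4.69 in CD livers (0.47, adjusted p = 0.0764), below the negative control 95th percentile. Apcs, serum amyloid P, read 11.68, 11.67 and 11.32 in HFN livers, against 10.96, 10.77 and 10.19 in CD livers (0.92, adjusted p = 0.573), and 2.02 higher at ZT18 (adjusted p = 0.0019). Of 17 pericentral genes, which mark hepatocytes around the central vein, 4 were lower and 0 higher at the unadjusted p with none past the test (2 lower without CD replicate 3). Avpr1a, a vasopressin receptor, read 8.03, 7.78 and 6.63 in HFN livers, against 9.81, 8.32 and 9.22 in CD livers (-1.64, adjusted p = 0.424).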
